A study of Mus musculus with 32 samples.

Results

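A set of 199 transcripts was lower in every mouse clear cell sarcoma started with TATCre than in every clear cell sarcoma started in another way. The set was taken from 55419 transcripts measured by RNA sequencing in 32 libraries, and its members were chosen by their own levels (RPKM, reads scaled by transcript length and by the depth of the library). The highest of 4 TATCre libraries had to lie below the lowest of the 9 other clear cell sarcoma libraries, and the mean of those 9 had to be at least 5 RPKM. That mean plus 1 also had to be at least 2 times the TATCre mean plus 1, a quotient called the ratio below. Of the 9861 transcripts with a mean of at least 5 RPKM, 2330 had such a ratio, and 224 of these also had no overlap between the groups (2.27% of the 9861). A drop step compared the median over all clear cell sarcomas, TATCre included, with those of osteosarcoma, synovial sarcoma and control (medians plus 1). The 25 transcripts with a clear cell median at least 4 times that of each of these classes were dropped, which left the 199. Because the levels chose the members, the difference between TATCre and the other 9 is described without a test.

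Human clear cell sarcoma arises in tendons and other soft tissue and is driven by a gene fusion that joins EWSR1, which encodes an RNA-binding protein, to the transcription factor gene ATF1. Mouse models start a tumour by letting Cre, a DNA recombinase, switch on or delete an allele. The promoter that drives Cre decides in which cells this happens. TATCre is a purified Cre protein joined to a peptide that enters cells, so it acts where it is delivered and not where a promoter is active. CreER and CreERT2 are forms that act in the presence of tamoxifen. Rosa26 is a locus active in most cells, Prx1 marks limb mesenchyme, and Bmi1 encodes a chromatin repressor found in many stem and progenitor cells.

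The other 9 clear cell sarcoma libraries came from 5 Rosa26CreER, 2 Prx1CreERT2 and 2 Bmi1IRESCreERT2 tumours, and all 13 clear cell titles carry EA1. The titles of the 7 osteosarcomas name Rb1 and p53, both tumour suppressors, with Col1Cre in 4 and Prx1Cre in 3. Col1 drives Cre in bone-forming cells. The 6 synovial sarcomas are titled Myf5-SSM2/PLUC, where Myf5 is a gene of the muscle lineage, and human synovial sarcoma is known for a fused SS18 and SSX gene. The titles of 5 controls say Chest and that of 1 says Bone, with no further word on their tissue. The TATCre titles end in N178-Lleg, N179-Larm, N123-Rleg and N123-RLN. The last word may name a site, and the final pair share N123, so they may come from 1 animal. Site and Cre cannot be told apart, since the other clear cell titles name no site. The labels state no age, strain or treatment beyond these names. Nothing states that libraries of a group came from separate animals, so each p-value measures the spread between libraries, part of which may be technical.

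The table names transcripts by UCSC identifiers and pairs none with a gene symbol, so the members are described by their levels and lengths and 4 are named by identifier. Tissue labels could not be checked against marker genes for the same reason. The steps of the RPKM values gave back whole reads for nearly all expressed transcripts, with 8.105 to 13.06 M reads behind a library. The 4 TATCre libraries had 9.166 to 11.52 M and the other 9 had 8.105 to 11.02 M, so TATCre was not the shallower group.

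In the other 9 clear cell sarcomas the mean level of a member ran from 5.156 to 1522 RPKM, with a median of 18.95. In TATCre it ran from 0 to 466.2 RPKM, with a median of 4.560. Most members were of moderate abundance: 128 had a mean of 10 to 100 RPKM in the other 9, 49 lay under 10, and 22 reached 100 or more. The ratio had a median of 3.603, with quartiles of 2.661 and 4.747, and it was at least 4 for 78 members and at least 8 for 9. At the edge of the rule, the member with the smallest ratio stood at 2.006 (a mean of 16.06 against 7.505 RPKM), and the transcript just outside stood at 1.987 (49.95 against 24.64 RPKM).

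The separation was narrow for many members. The lowest of the 9 was a median of 1.21 times the highest TATCre library, less than 1.2 times for 96 members, and at least 2 times for 12. The closest member had 34.44 RPKM in its lowest other library and 34.17 in its highest TATCre library, and the closest transcript outside had 7.315 and 7.317. Within the 9 libraries a member varied by a median of 3.42-fold from lowest to highest (quartiles 2.40 and 4.96), and 20 members varied by more than 10-fold. By these medians, the spread within the 9 was wider than the separation from TATCre at the nearest pair of libraries. The 4 members listed at 0 in every TATCre library have no such quotient. They are counted among the 12 and do not enter the median of 1.21.

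**Figure D1:**
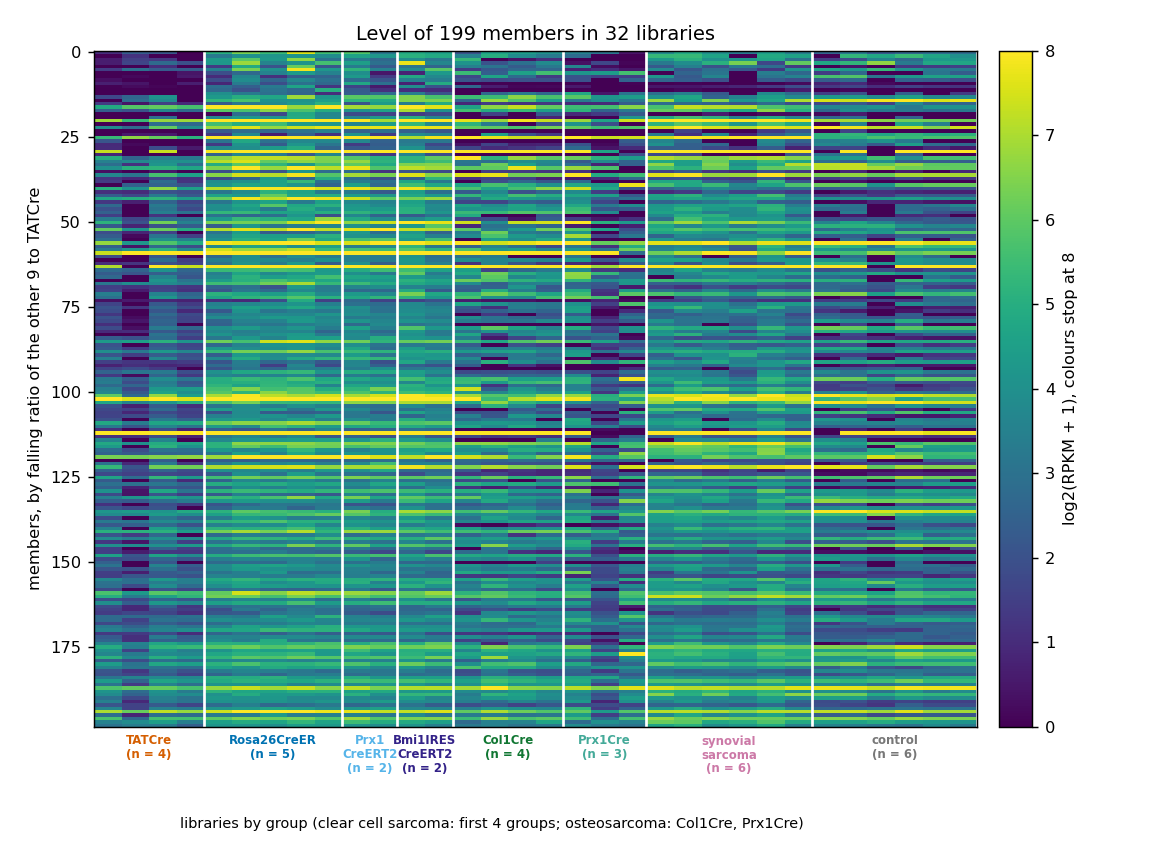
Level of each member (rows, by falling ratio) in each of the 32 libraries (columns, by group), as log2(RPKM + 1) with colours that stop at 8. The 4 TATCre columns on the left are darker than the next 9 columns by the rule. The second TATCre column (N123-Rleg) is the darkest of the 4 on average. Osteosarcomas Prx1Cre 38 (mean level 2.169) and Prx1Cre 42 (2.945) and control Chest3 (2.866) lie within the range of TATCre.

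The 4 TATCre tumours were not equally low. On the log2(RPKM + 1) scale the mean level over members was 2.699 in N123-RLN, 1.803 in N123-Rleg, 3.255 in N178-Lleg and 2.507 in N179-Larm. The other 9 clear cell sarcomas had 4.187 to 4.907. The library N178-Lleg was the highest TATCre library for 139 of the 199 members, N123-RLN for 29, N179-Larm for 19 and N123-Rleg for 12. The typical member stood at 0.4081 of the mean of the other 9 in N178-Lleg and at 0.1519 in N123-Rleg, with 0.2999 in N123-RLN and 0.2499 in N179-Larm (medians over members). The library N178-Lleg also set the size of the set. With it left out, the rule gave 829 transcripts, which included 198 of the 199. A member cannot gain an overlap when a library is left out, so most of that sharing was fixed in advance. Without Rosa26CreER 1 it gave 340, and without any other single clear cell library it gave 204 to 291.

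Members together took 0.4129% to 0.7805% of the reads in TATCre libraries and 1.672% to 3.297% in the other 9. Both ranges were set by the choice of members. In the remaining classes, whose levels did not enter the TATCre contrast, the share was 1.225% to 1.453% in synovial sarcoma, 0.9149% to 1.204% in controls and 0.3839% to 1.357% in osteosarcoma. Since these are bulk samples, fewer cells that express a transcript and less RNA per cell cannot be told apart.

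**Figure D2:**
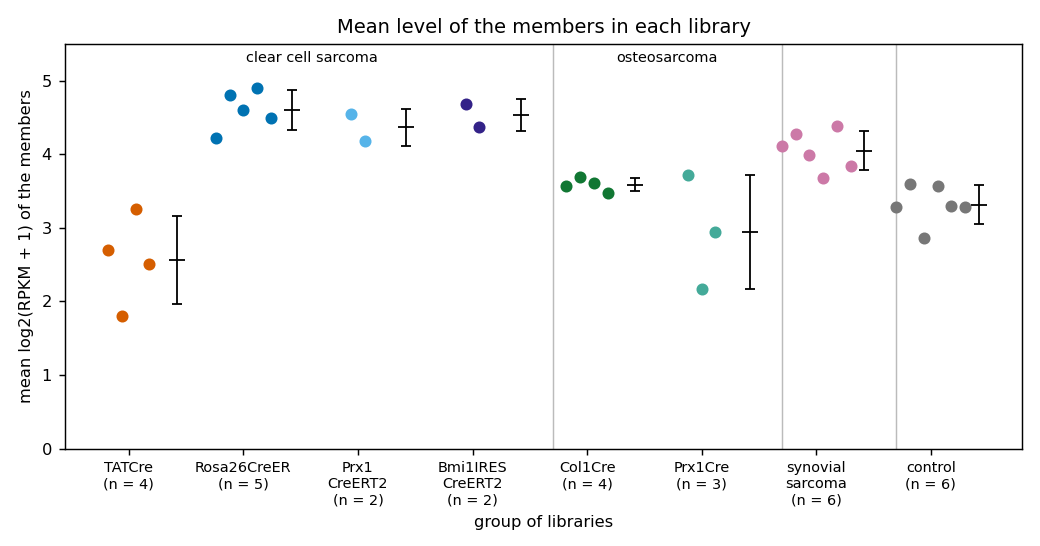
Mean log2(RPKM + 1) over the 199 members for each library (points), by group, with the group mean and SD as the black mark beside the points. TATCre libraries lie between 1.803 and 3.255, the other clear cell groups between 4.187 and 4.907, synovial sarcomas between 3.684 and 4.388, controls between 2.866 and 3.596, and osteosarcomas between 2.169 and 3.723.

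Library composition went with the member level at the low end. The mean transcript length per read, which falls when reads come from shorter transcripts, was 2562 bases in N123-RLN, 2148 in N123-Rleg, 2750 in N178-Lleg and 2368 in N179-Larm. It was 2535 to 2928 bases in the other 9 clear cell sarcomas, so 2 TATCre libraries lay inside that range and 2 below it. Of all 32 libraries, the 5 with the shortest mean length were osteosarcoma Prx1Cre 38 (1878 bases), TATCre N123-Rleg, control Chest3 (2193), osteosarcoma Prx1Cre 42 (2303) and TATCre N179-Larm. All 5 were among the 6 with the lowest member level, though the rule itself placed the TATCre libraries below the other clear cell sarcomas. Outside those 5 the order did not hold: Bmi1IRESCreERT2 2 had 2535 bases and a level of 4.376, and osteosarcoma Prx1Cre 28thigh had the longest mean, 2954 bases, and a level of 3.723. Within the TATCre group, the order of the libraries by member level was the order by mean length. With only N123-RLN and N178-Lleg to stand for TATCre, an alternative chosen after seeing the data, the rule gave 242 transcripts, which included 158 of the 199. Members keep their lack of overlap with fewer TATCre libraries, so only the ratio and the drop step could remove one. The same libraries differed less over all 15230 tested transcripts, where the mean log2(RPKM + 1) was 2.917 to 3.504 in TATCre and 3.183 to 3.642 in the other 9. The part of library composition in the members' levels was not tested.

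**Figure D3:**
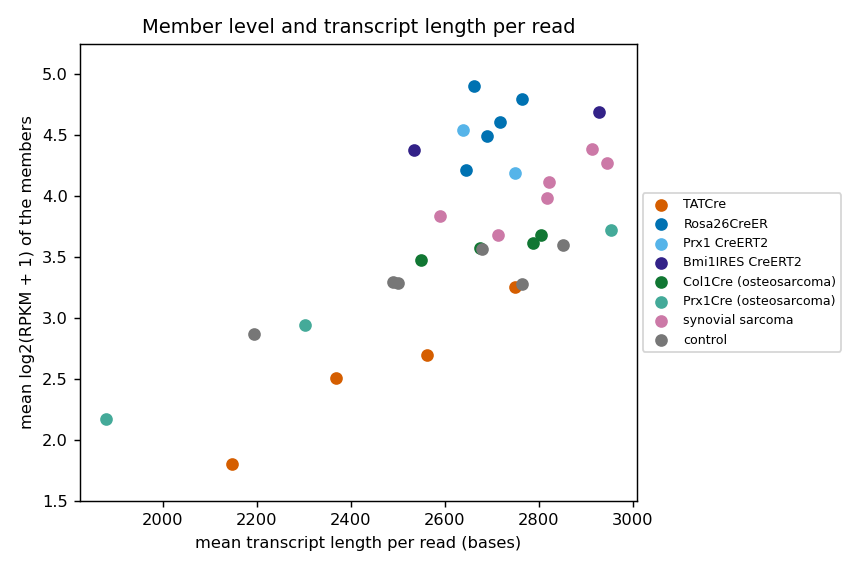
Mean log2(RPKM + 1) over the members against the mean transcript length per read in bases, 1 point per library, coloured by group. The libraries N178-Lleg (2750 bases, level 3.255) and N123-RLN (2562 bases, level 2.699) lie within the length range of the other 9 clear cell sarcomas and below them in level, and the shortest 5 libraries all lie under a level of 3.

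Values listed at 0 occurred in TATCre, both among members and over all tested transcripts. The share of members at 0 was 8.543% in N123-RLN, 23.62% in N123-Rleg, 6.030% in N178-Lleg and 14.57% in N179-Larm. Over all tested transcripts these shares were 18.83%, 24.44%, 9.928% and 19.46%. The lower shares of members are not like for like, since members needed a mean of at least 5 RPKM in the other 9. In the other 9, 10.32% to 21.39% of tested transcripts were at 0, and no member was. Of the 796 TATCre values of members, 105 were 0, with 17 in N123-RLN, 47 in N123-Rleg, 12 in N178-Lleg and 29 in N179-Larm, and none of the values of the other 9 was, which the rule required. No TATCre value was 0 for 137 members, 1 of the 4 was for 35, 2 for 15, 3 for 8 and all 4 for 4. At the level of the other 9, the zeros would have stood for a median of 29.6 reads, at least 20 reads for 84 of them and at least 100 for 6. Zeros were common at low depth over the transcripts of the 13 clear cell sarcoma libraries, TATCre included. There 19.2% of values were 0 where the other clear cell libraries had a median of 10 to 20 reads. The share was 0.143% where that median was 100 to 1000 reads. Members had a median of 102 reads per library in the other 9, and 100 of them had at least 100 reads.

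By recovered length, members had a median of 997 bases against 1106 over tested transcripts. Those under 300 bases made up 28.6% of members and 24.3% of tested transcripts, and those under 100 bases made up 9.55% and 10.6%. The labels do not say what a length of a few bases stands for, and the RPKM of such a transcript rests on very few bases. Of the 10 most abundant members, 4 had a length of 15 bases or less. Over the 142 members of at least 300 bases, the mean log2 level was 1.937 to 3.053 in TATCre and 3.964 to 4.758 in the other 9.

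Among the longer abundant members, which were chosen for mention after their values were seen, a transcript of 2254 bases had 161.0 to 403.9 RPKM in TATCre and 687.0 to 3199 in the other 9 (1404 ± 771.8, SD, n = 9). It had a median of 335.4 RPKM in osteosarcoma (6.060 to 1349), 185.6 in synovial sarcoma (72.71 to 394.7) and 72.49 in controls (43.24 to 102.3). Every TATCre library was thus above every control. A transcript of 6057 bases showed the same order against the controls, with 28.12 to 67.09 RPKM in TATCre, 104.5 to 881.2 in the other 9 and 8.143 to 16.22 in controls. A transcript of 2460 bases had 33.70 to 98.26 RPKM in TATCre and 134.3 to 828.0 in the other 9. In synovial sarcoma it had 179.5 to 710.1 RPKM, within the range of the other 9, and in controls 34.02 to 54.23, which overlapped TATCre. Being low in TATCre relative to other clear cell sarcomas was therefore not the same as being low relative to all samples.

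By medians over the whole set, the classes fell between the clear cell groups. The rule had set those groups apart, so a place between them is not read as a result. The median member had 4.017 RPKM in TATCre and 17.09 in the other 9, where each member was taken at its group median. It had 15.41 RPKM in synovial sarcoma, 9.862 in osteosarcoma and 8.291 in controls. The 3 other ways of starting a clear cell sarcoma gave 17.60 RPKM for Rosa26CreER, 15.30 for Prx1CreERT2 and 18.14 for Bmi1IRESCreERT2. The class median lay above TATCre for 181 members in synovial sarcoma, 142 in osteosarcoma and 125 in controls. It lay below the other 9 for 121, 166 and 147 members in the same order, and between TATCre and the other 9 for 103, 109 and 73. Of the 3 classes, synovial sarcoma was highest for 108 members, controls for 52 and osteosarcoma for 39. Osteosarcoma was lowest for 98, controls for 86 and synovial sarcoma for 15. Synovial sarcoma was also the highest of these classes over all tested transcripts. There the mean log2 level was 3.675 in synovial sarcoma, 3.272 in osteosarcoma and 3.058 in controls (means over libraries). Counts of this kind are not given for all tested transcripts, so the order of the classes is not read as particular to the members.

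Members fell into 4 patterns across the classes. For 80 members (40.2%) TATCre was the lowest class while the other 9 were not the highest: the median member of this kind had 5.162 RPKM in TATCre, 17.24 in the other 9, 14.11 in osteosarcoma, 20.16 in synovial sarcoma and 22.50 in controls. Outside TATCre these medians lay within 14.11 to 22.50 RPKM. For 72 members (36.2%) the other 9 were the highest class while TATCre was not the lowest, with 5.398 RPKM in TATCre, 18.08 in the other 9, 4.764 in osteosarcoma, 8.975 in synovial sarcoma and 2.677 in controls. Here the TATCre median lay near that of osteosarcoma and above that of controls. A further 23 members met both conditions and 24 met neither. The last 24 had 2.543 RPKM in TATCre, 13.43 in the other 9, 2.048 in osteosarcoma, 15.92 in synovial sarcoma and 3.078 in controls. The median length was 457.0 bases for the first pattern and 1854 for the second. In all, TATCre was the lowest class for 51.8% of members, against 25.2% of tested transcripts, and the other 9 were the highest for 47.7%, against 22.2%. The rule used both groups, so nothing is read from these shares.

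Osteosarcoma, synovial sarcoma and control were compared with each other. Their levels did not choose the contrast between TATCre and the rest, although the drop step used their medians. The test was limma, a linear model with a moderated error, on log2(RPKM + 1) over the 15230 transcripts with at least 1 RPKM in 6 libraries or more. A transcript was called at a Benjamini-Hochberg adjusted p under 0.05, and all 199 members were tested. Both comparisons with control share the same 6 controls.

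Against controls, 64 members differed in osteosarcoma (32.2%), with 26 higher and 38 lower. Over all tested transcripts 39.7% were called, 26.6% higher and 13.0% lower. The median log2 fold change was 0.01 over members and 0.25 over all. The 26 higher members had a median log2 fold change of 2.00 and went from 2.693 RPKM in controls to 15.00 in osteosarcoma, with 6.192 in TATCre and 23.15 in the other 9. The 38 lower members had a median log2 fold change of -1.70 and went from 33.56 RPKM to 6.542, with 3.987 in TATCre and 17.17 in the other 9. The direction of this count changed without osteosarcoma Prx1Cre 38, an alternative chosen after seeing the data. Its mean member level of 2.169 was the lowest outside TATCre, so leaving it out raised the osteosarcoma mean. Then 33 members were higher and 30 lower, and the median was 0.17. All transcripts gave 4068 higher and 1872 lower there, against 4057 and 1984 with that library. Without Prx1Cre 42, 35 members were higher and 40 lower, beside 4435 and 2166 of all transcripts. Scaling the libraries by median ratio gave 19 members higher and 54 lower, and 2743 and 3168 of all transcripts. Quantile normalization gave 23 and 55 members, and 3082 and 2727 of all transcripts.

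In synovial sarcoma 70 members differed from controls (35.2%), with 61 higher and 9 lower, a balance that flipped to 35 and 38 under quantile normalization and became 33 and 28 under median ratio scaling. Over all tested transcripts 43.2% were called, 36.5% higher and 6.67% lower. Their balance moved in the same way, from 5563 higher and 1016 lower to 2592 and 2640 under quantile normalization and 2622 and 2330 under median ratio scaling, so the flip is one of the whole table. The median log2 fold change was 0.67 over members and 0.61 over all. Median ratio scaling moved the median of all transcripts from 0.61 to 0.06 here, from 0.25 to -0.02 for osteosarcoma against control and from -0.32 to -0.08 for osteosarcoma against synovial sarcoma, so directions are relative to that shift. The 61 higher members rose by 0.668 to 4.32 on the log2 scale, from a median of 2.792 RPKM in controls to 18.09 in synovial sarcoma. The same members had 17.89 RPKM in the other 9 clear cell sarcomas, 5.695 in TATCre and 8.059 in osteosarcoma. The 9 lower members went from 74.51 to 23.66 RPKM. Averaging the synovial sarcoma libraries that share a title number left 45 members called, 43 of them higher, and 4254 of all transcripts, 3813 of them higher.

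Between the tumours, 40 members differed between osteosarcoma and synovial sarcoma (20.1%), 5 higher in osteosarcoma and 35 lower. Over all tested transcripts 27.4% were called, 5.69% higher and 21.8% lower. The median log2 fold change was -0.77 over members and -0.32 over all. The 35 lower members fell by 1.02 to 4.25 on the log2 scale, from a median of 18.47 RPKM in synovial sarcoma to 2.772 in osteosarcoma, beside 4.017 in TATCre and 15.76 in the other 9. Under median ratio scaling 5 members were higher and 26 lower, beside 1511 and 2215 of all transcripts. Under quantile normalization these were 15 and 27 members, beside 2016 and 1762 of all transcripts, where the balance over all transcripts reversed. With libraries of a shared title number averaged they were 0 and 24 members, beside 319 and 1775 of all transcripts.

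**Figure D4:**
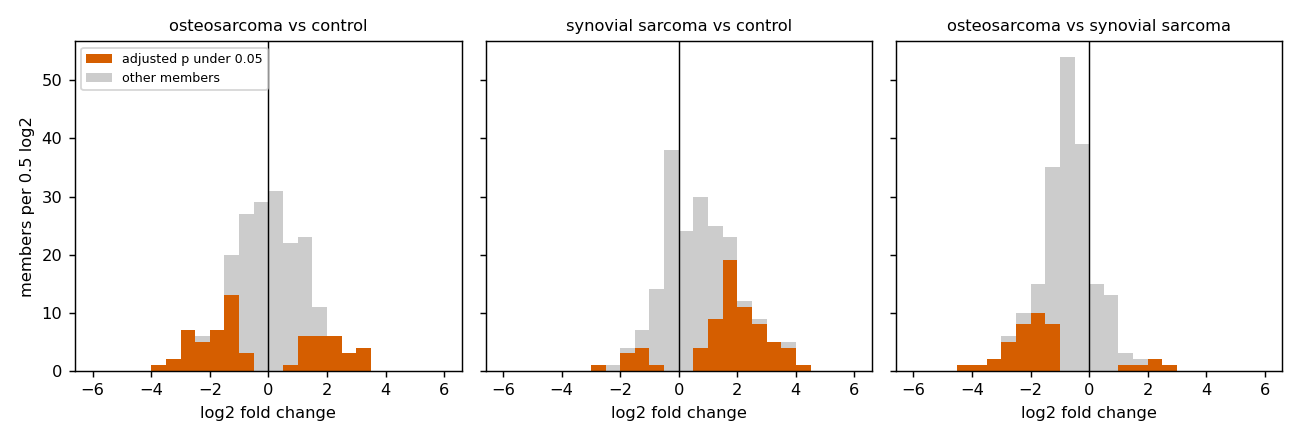
Number of members per 0.5 step of the log2 fold change in the 3 comparisons of classes, stacked, with members called by limma (adjusted p under 0.05) in orange and the rest in grey. Called members lie on both sides for osteosarcoma against control (26 higher, 38 lower), mostly on the right for synovial sarcoma against control (61 and 9), and mostly on the left for osteosarcoma against synovial sarcoma (5 and 35).

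The groups within a class were compared where TATCre played no part. Of the 182 members tested between Col1Cre and Prx1Cre osteosarcoma, limma called 0, as it did over all 12623 tested transcripts (0%), with 12 members and 570 transcripts at an unadjusted p under 0.05. In simulated data this comparison recovered 0% of changes of 2 on the log2 scale. The median log2 fold change was 0.63 over members and 0.23 over all, and 0.16 over members without Prx1Cre 38. The 3 Prx1Cre tumours had mean member levels of 3.723, 2.169 and 2.945, a wider spread than the 3.478 to 3.686 of the 4 Col1Cre tumours.

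Among the other 9 clear cell sarcomas, the same test called 0 of 199 members between Rosa26CreER and Bmi1IRESCreERT2, where it called 0.0275% of 14549 transcripts, and 27 members (13.6%) had an unadjusted p under 0.05, against 15.6% of all. It called 0 members between Rosa26CreER and Prx1CreERT2 (2.67% of all), with 6.53% of members and 12.4% of all at an unadjusted p under 0.05, and 0 between Prx1CreERT2 and Bmi1IRESCreERT2 (1.86% of all), with 5.53% of members and 12.8% of all. A count of 0 does not show equal levels. The highest of the 9 was a Rosa26CreER library in 126 members (63.3%), a Bmi1IRESCreERT2 library in 52 (26.1%) and a Prx1CreERT2 library in 21 (10.6%). Rosa26CreER has 5 of the 9 libraries, and over the 9861 transcripts with a mean of at least 5 RPKM these shares were 60.4%, 21% and 18.6%.

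The members named by identifier were limited to those of at least 300 bases and show how differently a transcript can arrive in the set. The transcript with the largest ratio of that length, uc007iik.1 (501 bases, ratio 18), had 1.049 RPKM in TATCre N123-RLN, 3.985 in N123-Rleg, 3.456 in N178-Lleg and 0 in N179-Larm. These stood for 5, 23, 19 and 0 reads. In the other 9 it had 8.000 to 186.4 RPKM with a median of 41.46 (55.21 ± 53.42, SD, n = 9). Both extremes were wide apart, and Rosa26CreER 4 held the top value. Osteosarcomas had 0.3710 to 22.68 RPKM (median 10.33), synovial sarcomas 8.558 to 26.52 (13.45) and controls 3.826 to 8.449 (5.798). The ranges of the last 3 classes overlapped, except that all synovial sarcomas lay above all controls. In limma, osteosarcoma did not pass the test against synovial sarcoma (log2 fold change -0.77, SE 0.87, adjusted p = 0.547, and 0.519 to 0.907 over 9 alternatives).

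The next in ratio, uc008urn.1 (1834 bases, ratio 14), had 0.5733, 1.846, 1.491 and 0 RPKM in the TATCre libraries, in the order above. In the other 9 it had 5.496 to 98.10 RPKM, with a median of 14.21. It was listed at 0 in 4 of 7 osteosarcomas, among them all 3 Prx1Cre tumours. The others were Col1Cre tumours with 0.3312, 1.130 and 39.24 RPKM, the last in Col1Cre 22. Synovial sarcomas had 7.132 to 32.85 RPKM (median 17.86) and controls 1.791 to 18.88 (median 8.288). So 6 of the 7 osteosarcomas lay within the TATCre range. In limma it was lower in osteosarcoma than in synovial sarcoma (log2 fold change -3.24, SE 0.90, adjusted p = 0.00744), a call lost when libraries of a shared title number were averaged (log2 fold change -3.03, adjusted p = 0.0766, the highest of 9 alternatives that began at 0.00231). Against controls it missed the threshold (-2.07, SE 0.90, limma adjusted p = 0.0658) and passed it under median ratio scaling (adjusted p = 0.0226, with 0.0125 to 0.108 over 9 alternatives).

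The pair of this length with the largest called rise in osteosarcoma over synovial sarcoma had another pattern. The transcript uc009clt.1 (1854 bases, ratio 5.20) had 32.49, 15.87, 101.7 and 22.60 RPKM in TATCre and 129.7 to 496.4 in the other 9, with a median of 210.9. Controls had 3.027 to 5.118 RPKM and synovial sarcomas 4.816 to 12.93, so every TATCre library was above both classes. Osteosarcomas ran from 3.158 RPKM in Prx1Cre 42 to 166.2 in Prx1Cre 28thigh, with a median of 49.24. In limma, osteosarcoma was higher than synovial sarcoma (log2 fold change 2.11, SE 0.68, adjusted p = 0.0199) and than control (3.01, SE 0.68, adjusted p = 7.14e-04). The first call was lost with shared title numbers averaged (log2 fold change 2.09, adjusted p = 0.0878), and the 9 alternatives ran from 0.00155 to that value.

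The transcript uc007nkw.2 (300 bases, ratio 9.43) was listed at 0 in 3 TATCre libraries and had 0.3637 RPKM, or 1 read, in N179-Larm. The other 9 had 0.4048 to 19.78 RPKM with a median of 10.58. The lowest of these, Prx1CreERT2 4, also rested on 1 read, and Bmi1IRESCreERT2 1 on 2 reads, so its place in the set turns on single reads. Osteosarcomas had 4.288 to 48.32 RPKM (median 23.14), and the highest of the other 9, 19.78 RPKM, lay below that median. Synovial sarcomas had 0 to 9.778 RPKM and controls 0 to 7.540, with 2 libraries at 0 in each. In limma, osteosarcoma was higher than synovial sarcoma (log2 fold change 2.65, SE 0.83, adjusted p = 0.0175) and than control (3.01, SE 0.83, adjusted p = 0.00444). The first of these was lost with shared title numbers averaged (log2 fold change 2.08, adjusted p = 0.151) and with a pseudocount of 0.1 (adjusted p = 0.0550), and the 9 alternatives ran from 0.00594 to 0.151.

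**Figure D5:**
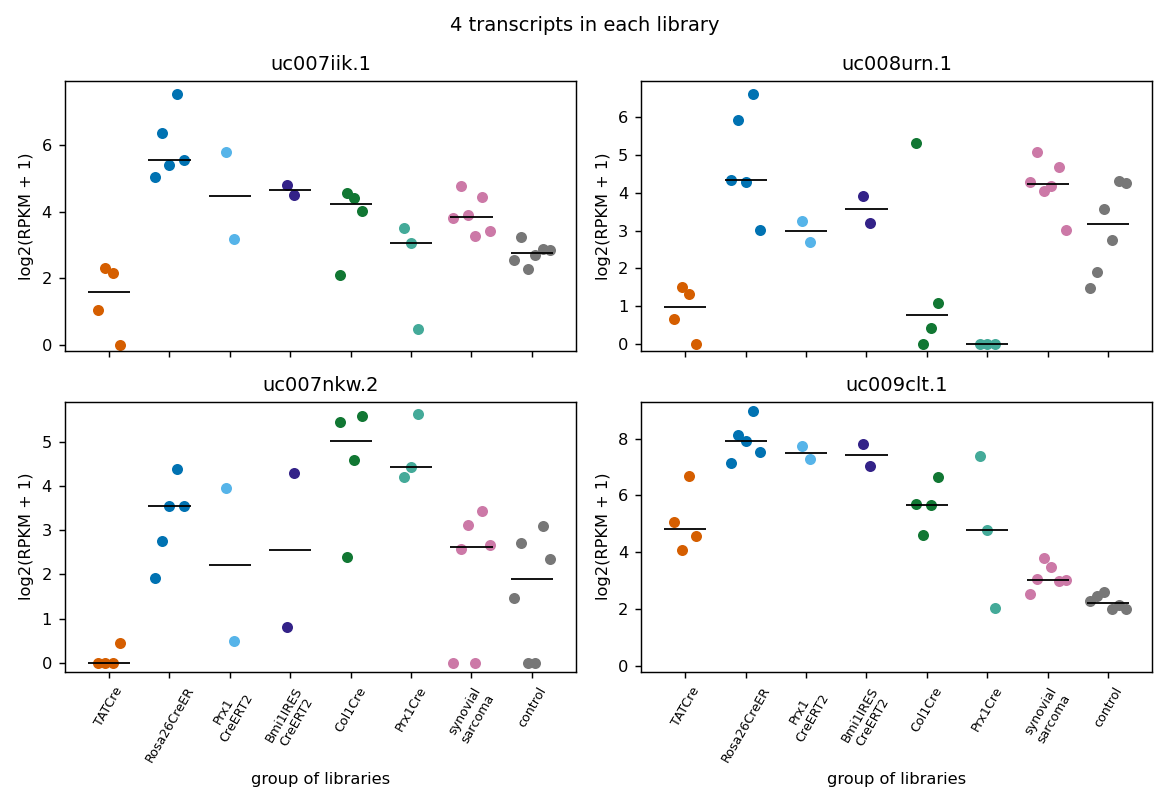
log2(RPKM + 1) of the 4 named transcripts in each library (points), by group, with the group median as a line. TATCre is the lowest group for uc007iik.1 and uc007nkw.2, lies among the osteosarcomas for uc008urn.1, and lies above synovial sarcoma and control for uc009clt.1.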

How the data were processed

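RNA was sequenced from 32 mouse libraries. Per the labels' protocols a Qiagen RNeasy kit and DNase gave the RNA and an Illumina TruSeq kit the libraries. Per the submitters' processing notes, CASAVA 1.8.2, Novoalign 2.07.03 and the mouse build mm9 were used. How reads were counted is not stated. The authors deposited RPKM values, 1 column per library. A deposited table with 29 human columns was not analysed here.

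Reads, lengths and denominators were recovered from the RPKM steps. Of 16398 transcripts above 0 in at least 6 libraries, 99.66% gave whole lengths and reads (within 0.02 bases and 0.05 reads). RPKM values are not counts, so limma 3.58.1 in R 4.3.3 was run on log2(RPKM + 1) with an intensity trend, two-sided, with Benjamini-Hochberg adjustment over all tested transcripts. Fold changes are on that scale, which understates those of low transcripts. The class comparisons fitted all 32 libraries in 4 classes. The comparisons within clear cell sarcoma fitted the 9 libraries without TATCre (at least 1 RPKM in 2 libraries), and those within osteosarcoma its 7 (in 3). Descriptions used Python 3.11.15. On simulated data, changes of 2 on the log2 scale were recovered for 80% of transcripts in osteosarcoma against control, for 62.5% in Rosa26CreER against Bmi1IRESCreERT2 and for 0% in Col1Cre against Prx1Cre osteosarcoma. The changes were placed only in transcripts with a mean log2(RPKM + 1) above 3, so lower members are not covered. False calls made up 6.433% of the calls in the first of these and 10.71% in the second.

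Alternatives were pseudocount 0.1, no filter on low values, median ratio scaling, quantile normalization, lengths of at least 300 bases, averaging libraries that share a title number, leaving out libraries, a replicate block and other limits in the rule. The members and lists were chosen with earlier results of these data known. The named identifiers were the 2 members with the largest ratio and the 2 with the largest positive called log2 fold change of osteosarcoma against synovial sarcoma, all of at least 300 bases. Gene lists and marker lists were not used, since no table used here pairs the identifiers with symbols, and no sequence is printed for the same reason. Overlapping transcripts of 1 locus could share or split reads, and 19 members stand next to another member in the table.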

Additional observations from a re-analysis of the deposited data

Results flagged for a closer look

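Dixon's gap criterion was applied to 25 groups of values, for the mean member level and the 4 named transcripts. In 4 groups, all for named transcripts, 1 library stood far from the rest of its group. Chance alone meets the criterion in about 1 in 20 groups. For uc007iik.1 the clear cell sarcoma Rosa26CreER 4 had 186.4 RPKM and the other 8 libraries outside TATCre 8.000 to 80.59. The same library had 496.4 RPKM of uc009clt.1, against 129.7 to 275.7 in the others. For uc008urn.1 the osteosarcoma Col1Cre 22 had 39.24 RPKM and the other osteosarcomas 0 to 1.130. For uc007nkw.2 the TATCre library N179-Larm had 0.3637 RPKM, which is 1 read, and the other TATCre libraries were listed at 0.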

How the results depend on the processing

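The size of the set and the counts of called members gave 107 recomputed values. Of these, 90 stayed within 1.5 times without reversing, 15 moved and 2 reversed. Many of the 90 were counts of 0 in comparisons within a class that stayed 0, which have no direction to keep. The simulated recovery of 0% in Col1Cre against Prx1Cre osteosarcoma left little room for a call there. The reversals were osteosarcoma against control without Prx1Cre 38, an alternative chosen after seeing the data (63 members, 33 higher and 30 lower), and synovial sarcoma against control under quantile normalization (73 members, 35 higher and 38 lower). The cause was not tested. Averaging libraries of a shared title number gave 45 members for synovial sarcoma against control and 24 for osteosarcoma against synovial sarcoma, with fewer libraries in the fit, and lowered the calls over all transcripts from 6579 to 4254 and from 4179 to 2094. A ratio of 3 left 126 members. Leaving out 1 clear cell library gave 204 to 829 members, with 829 without TATCre N178-Lleg and 340 without Rosa26CreER 1. In osteosarcoma against control, 75 members were called without Prx1Cre 42 and 54 without the control Bone3. Over all transcripts the calls moved the same way, from 6041 to 6601 and 5402. No other library than these and Prx1Cre 38 was left out. Leaving out 1 library gave 0 to 1 called members in Col1Cre against Prx1Cre osteosarcoma, in Rosa26CreER against Bmi1IRESCreERT2 and in Rosa26CreER against Prx1CreERT2. Over all transcripts these runs called 0 to 16, 3 to 12 and 101 to 449. A pseudocount of 0.1 gave 1 called member in Rosa26CreER against Prx1CreERT2 and 1 in Prx1CreERT2 against Bmi1IRESCreERT2, beside 580 and 480 of all transcripts. Over all transcripts, the 389 calls of Rosa26CreER against Prx1CreERT2 became 74 at lengths of at least 300 bases, 112 and 101 without Prx1CreERT2 2 or 4, and 0 with the replicate block. The 271 of Prx1CreERT2 against Bmi1IRESCreERT2 became 480 with a pseudocount of 0.1, 5 at lengths of at least 300 bases, 152 with all 13 clear cell sarcomas in the fit, 71 and 57 without Prx1CreERT2 2 or 4, and 155 without Bmi1IRESCreERT2 1. The replicate block, which pairs libraries by title number, called 0 members in Rosa26CreER against Bmi1IRESCreERT2 and 0 in Rosa26CreER against Prx1CreERT2, as without it. The values showed no pairing that held for every number: deviations of same-numbered libraries correlated at -0.355 and 0.00319 for Bmi1IRESCreERT2 1 and 2 and at 0.388 and 0.00492 for Prx1CreERT2 2 and 4, over 14549 transcripts. Of 63 values for named transcripts, 55 kept their side of the threshold, 4 fell short of it and 4 came to pass it, all with the same sign. For uc008urn.1 in osteosarcoma against control, adjusted p was 0.0125 with a pseudocount of 0.1, 0.0292 under quantile normalization and 0.0475 without Bone3. At 11 to 20 reads, the depth of 18 members in the other 9, a value of 0 limits what TATCre levels show.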
